A study of Drosophila melanogaster with 4 samples.

Results

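GFP-tagged exex, a homeodomain transcription factor, had 1220 single-summit peaks in core promoters of protein-coding genes of Drosophila melanogaster embryos, outside divergent promoters. A peak was a member of this set when it was on the list the authors filtered by irreproducible discovery rate (IDR), was the only peak called over its region, had its summit at most 200 bp from the nearest protein-coding transcription start site (TSS), and did not lie within 1000 bp of both start sites of a head-to-head gene pair. The IDR list held 7909 peaks, of which 6644 were single-summit. The other single-summit peaks numbered 5424, of which 944 lay in divergent promoters, 1541 at 201 to 1000 bp from a TSS outside such promoters and 2939 farther away; those 2939 are called distal below. Signal entered the choice only through the IDR list, which holds the 7909 highest peaks of the pooled list, and sequence did not enter it. Within that list members were chosen by position.

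The data came from chromatin immunoprecipitation and sequencing of whole embryos aged 6 to 24 h of a transgenic line with GFP fused to the C-terminus of exex, precipitated with an antibody against GFP. The labels give the 4 libraries as biological replicates, all of 1 group, and neither a second genotype nor a treatment was compared. The embryos are a mixture of all cell types, so binding in a few cells and weak binding in many cannot be told apart. The peak lists carry no read counts, so sequencing depth is unknown.

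exex, known in vertebrates as HB9, takes part in motor neuron identity, and Antennapedia-type homeodomains bind sequences around TAATTA. A core promoter is the stretch around a TSS on which RNA polymerase II assembles. Fly core promoters come in broad kinds. Promoters of genes active in most cells often hold the DNA replication-related element (DRE), bound by DREF, or Motif 1, bound by M1BP, while promoters of regulated genes more often hold a TATA box, bound by TBP, an Initiator at the TSS, or sites of GAGA factor, a protein that opens chromatin. GATA factors bind sequences such as CTTATC and act in gut, fat body and blood cells of the fly.

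Sequences of 9 members show what these promoters hold. They are the 4 strongest members that could be shown and the strongest member with each of 7 motifs. The strongest with a TATA box is Diap1, whose TATA match lies outside the bases printed for it. Capitals mark matches on either strand to the homeodomain site TAATTA, the GATA site CTTATC, the DRE core ATCGAT (the middle of the longer DRE, TATCGATA), the Motif 1 core GGTCACAC, the TATA box TATAAA, the GAGA factor site GAGAGA and the E-box CAGCTG. Matches of these letters were found within 100 bp of the TSS in 8.87%, 12.5%, 14.0%, 4.23%, 29.5%, 9.51% and 11.7%, in that order, of all 9032 protein-coding promoters outside head-to-head pairs, so a match is a description and not a binding site. Each sequence runs 5′ to 3′ on the strand of its gene, on Drosophila Release 6 (dm6), and covers the bases within 100 bp of the summit that lie outside exons, or only the motif and its neighbouring bases where the summit window lies in an exon.

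Diap1, chr3L:16050549-16050578, minus strand, an inhibitor of apoptosis, the strongest member and the strongest with a GATA site: tataatCTTATCgtggtgcGATAAGaggtg
CG14100, chr3L:19590525-19590714, minus strand, with none of the 7 motifs: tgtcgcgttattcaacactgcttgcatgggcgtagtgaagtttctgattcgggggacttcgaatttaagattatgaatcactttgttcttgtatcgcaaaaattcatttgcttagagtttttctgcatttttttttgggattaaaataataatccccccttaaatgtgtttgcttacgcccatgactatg
Gapdh2, chrX:15867898-15868098, plus strand, a glycolytic enzyme: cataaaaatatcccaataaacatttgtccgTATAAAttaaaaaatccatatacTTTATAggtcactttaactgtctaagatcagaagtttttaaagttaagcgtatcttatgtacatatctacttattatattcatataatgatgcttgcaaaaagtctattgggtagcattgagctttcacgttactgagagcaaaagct
CG3301, chr3R:21276332-21276532, minus strand: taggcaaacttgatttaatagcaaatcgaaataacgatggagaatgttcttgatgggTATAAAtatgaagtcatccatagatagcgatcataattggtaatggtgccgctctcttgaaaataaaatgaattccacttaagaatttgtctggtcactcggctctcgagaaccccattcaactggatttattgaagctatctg
CAH3, chrX:8685713-8685742, plus strand, a carbonic anhydrase, the strongest with the DRE core: ctgttgccataaATCGATagctaactaatt
Ndae1, chr2L:7240508-7240708, minus strand, an anion exchanger, the strongest with the whole DRE and with a GAGA factor site: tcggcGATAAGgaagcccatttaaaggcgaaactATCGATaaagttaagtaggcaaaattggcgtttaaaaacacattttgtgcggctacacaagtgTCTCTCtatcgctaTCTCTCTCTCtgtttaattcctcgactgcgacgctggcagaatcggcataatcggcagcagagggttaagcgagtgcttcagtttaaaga
CG18549, chr3R:12449063-12449263, plus strand, the strongest with a homeodomain site: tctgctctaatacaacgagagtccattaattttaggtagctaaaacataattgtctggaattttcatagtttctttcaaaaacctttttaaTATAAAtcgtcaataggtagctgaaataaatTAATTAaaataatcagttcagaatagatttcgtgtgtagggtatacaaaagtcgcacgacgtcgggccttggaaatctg
CG6933, chr3L:20220495-20220695, minus strand, the strongest with the E-box: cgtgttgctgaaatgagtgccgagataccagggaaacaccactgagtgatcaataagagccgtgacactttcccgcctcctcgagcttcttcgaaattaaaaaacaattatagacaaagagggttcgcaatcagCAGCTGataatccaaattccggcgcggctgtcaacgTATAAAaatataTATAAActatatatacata
Oatp33Ea, chr2L:12445736-12445765, minus strand, an organic anion transporter, the strongest with the Motif 1 core: acggtgtacgaGTGTGACCaccactatttg

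The 2 GATA sites of Diap1 lay on opposite strands, starting 99 and 112 bp downstream of its TSS, and the summit fell at 112 bp. The promoter of Ndae1 combined several motifs, with a GATA site that started 200 bp upstream of the TSS, a DRE core at 171 bp upstream and GAGA factor sites that started at −108, −94, −92 and −90 bp from it, of which the last 3 overlap. The homeodomain site of CG18549 started 111 bp upstream, 22 bp from the summit. The stretch of CG14100, the second strongest member, held none of the 7 motifs.

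The member summits lay mostly upstream of the start site. Of the 1220 IDR summits, 806 were upstream of the nearest TSS, which is 66.1% (95% Wilson interval 63.4 to 68.7%). The rule was then applied to the 7909 highest-signal peaks of each replicate, which gave 1438, 1117, 1131 and 1411 members of their own in replicates 1 to 4. Upstream summits made up 68.4%, 63.3%, 63.1% and 65.4% of them, with a mean of 65.0% ± 2.44 (SD, n = 4). The excess over 50% was 16.1 points for all IDR members and 5.47 points for those with a summit within 100 bp. All 4 replicates were above 50%, and an exact two-sided sign-flip permutation test over the replicates gave p = 0.13, the smallest that 4 replicates allow. The median IDR summit lay 54 bp upstream, and the median of the replicates averaged 49.5 ± 2.89 bp upstream (SD, n = 4).

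**Figure D1:**
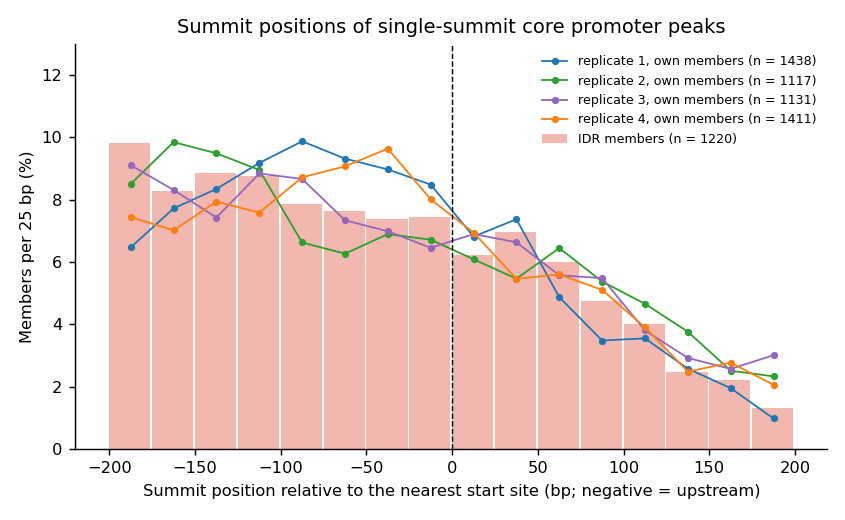
Position of the summit relative to the nearest TSS, in bp with upstream negative, against the percentage of members per 25 bp, for IDR members (bars) and for the own members of each replicate (points joined by lines). The IDR bars hold 9.84% of members at the upstream end of the range and 1.31% at the downstream end, and the 4 replicates likewise fall off downstream of the TSS.

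The fall was not centred on the TSS. Summits more than 100 bp upstream made up 35.7% of IDR members, and those more than 100 bp downstream 9.59%. By annotation, 465 summits (38.1%) were intergenic, 432 (35.4%) lay in a 5′ UTR of the gene and 211 (17.3%) in one of its introns. A further 57 lay in an intron and 38 in an exon of another gene, and 17 lay in the coding sequence of the gene itself. For 24 members a second gene also had a TSS within 200 bp. At the edge of the rule, the 54 members at 191 to 200 bp had a median signal of 423, and the 51 peaks just outside, at 201 to 210 bp, had a median signal of 654. Upstream summits made up 87.0% of the former and 84.3% of the latter, so the upstream excess did not end at the limit of the rule. Signal here is the value that the authors' files give each peak, and it serves to order peaks of 1 list and not to compare lists.

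Members stood at all levels of the list except its very top. Their share of the list was 15.4% in the IDR list and 16.1% ± 2.20 (SD, n = 4) in the replicates, at 18.2%, 14.1%, 14.3% and 17.8% in replicates 1 to 4. The median member ranked 4380.5 in the IDR list, and the median of the other single-summit peaks ranked 4226. Their signal had a median of 413 and a range of 230 to 4940, against a median of 427 and a range of 230 to 13795 for the other single-summit peaks. The share of members overlapped by a peak in the 7909 highest of a replicate was 87.7%, 79.6%, 87.2% and 77.5% in replicates 1 to 4. The other single-summit peaks were overlapped in 86.6%, 87.3%, 88.4% and 76.2% of cases. The mean difference of members minus others was −1.63 ± 4.22 percentage points (SD, n = 4; exact two-sided sign-flip test, p = 0.75). Replicate 2 differed from the rest, at −7.74 points, while the other 3 lay between −1.17 and 1.24 points and averaged 0.41. The rank percentile of the overlapping replicate peak differed between members and others by 1.06 ± 1.91 points (SD, n = 4; exact sign-flip test, p = 0.375).

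Recovery by single replicates was uneven. Of the 1220 members, 704 (57.7%) were overlapped in all 4 replicates, 269 in 3, 183 in 2, 61 in 1 and 3 in none. Replicate 4 had the fewest well-supported peaks: 88.7% of its own members had a q-value under 0.01, against 100% in each of replicates 1 to 3, and 23.2% of its whole list of 30000 peaks did, against 39.6% to 46.2%. Where a member was found, its position was close. The replicate summit lay a median of 18, 17, 18 and 30 bp from the IDR summit in replicates 1 to 4, and within 50 bp in 76.4% ± 6.69 of members and 77.9% ± 7.12 of other single-summit peaks (SD, n = 4 each). The difference of −1.44 ± 1.13 points had the same sign in all 4 replicates (exact sign-flip test, p = 0.13). The IDR list was made from these replicates, so their overlap with it is not independent of it.

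The strongest members stood at genes of metabolism, transport and cell survival as well as at genes known only by a number. The peak of Diap1, which blocks caspases, had a signal of 4940 and ranked 16 in the IDR list. The overlapping Diap1 peak ranked 17, 24, 18 and 13 in replicates 1 to 4, so it stood near the top of every list. CG14100 had a signal of 4350 and ranked 29, 38, 83 and 5 in the replicates. Gapdh2, a glyceraldehyde-3-phosphate dehydrogenase, had a signal of 3731 and ranked 80, 41, 79 and 12. CAH3, with a signal of 3551, ranked 41, 30 and 53 in replicates 1 to 3 and 316 in replicate 4. Ndae1, with a signal of 3271, likewise ranked 51, 70 and 61 in replicates 1 to 3 and 240 in replicate 4. The remaining members of the strongest 15 were CG3301, bru2 (an RNA-binding protein), CG3734, daed, lambdaTry (a trypsin-family protease), CG18549, CG6933, CG13949, Agpat2 (an acyltransferase of glycerolipid synthesis) and Srr (a serine racemase), with signals of 2547 to 3728. All 15 were overlapped by a peak in every replicate, with a worst rank of 654 among 7909 at CG13949.

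The 5 weakest members stood at the end of the IDR list. They were at CG31710, hebe, CG2017, fus and CG15865, with signals of 230 to 231 and IDR ranks of 7878 to 7909. Their overlapping replicate peaks ranked between 2967 and 18910 of 30000. The peak at CG2017 ranked 5059, 3692, 5649 and 9283 in replicates 1 to 4, while that at fus ranked 6155, 6826 and 6578 in replicates 1, 2 and 4 and 18910 in replicate 3. The order of peaks at this end of the list was therefore loose between replicates.

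The promoters of members were compared with unbound promoters to learn which sequences set them apart among promoters. One window of 100 bp on each side of a TSS was taken for each of the 1121 genes with a member. The same was done for 7033 protein-coding genes with no IDR summit within 1000 bp of any TSS and outside head-to-head pairs. The TSS was the one nearest to the summit for genes with a member and the 5′-most one for unbound genes. Of the 1121 genes, 1008 stood outside head-to-head pairs. The 2 sets thus differ in these choices as well. Every 6 bp sequence, with both strands merged, was tested by Fisher's exact test, two-sided, with Benjamini-Hochberg adjustment over all of them. At an adjusted p under 0.05, 210 were higher in members (10.1% of those tested) and 194 were lower (9.33%). Those p-values describe promoters and not replicates, so the spread over the 4 replicates, each with its own members and unbound promoters, is given beside the differences. All 404 called sequences had the same sign in 4 of 4 replicates. The IDR list was made from these replicates, so the shared sign is not independent of the calls. No expression values were used, so unbound promoters of genes that are silent in the embryo were not separated from those of active genes.

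The GATA site had the lowest p of all 6 bp sequences. CTTATC occurred in 24.4% of members' promoters (22.0 to 27.0%) and in 10.5% of unbound promoters (9.83 to 11.3%). In the 4 replicates members' promoters held it in 24.3%, 25.6%, 24.4% and 23.2% of cases, against 10.6%, 10.7%, 10.6% and 11.0% of unbound promoters. The difference averaged 13.6 ± 1.13 percentage points (SD, n = 4), and its adjusted p by Fisher's exact test was 3.48e-30. Over the IDR members the difference was 13.9 points, and it was 4.72 points in windows of 50 bp on each side of the TSS, still with a call (adjusted p = 5.34e-07 by Fisher's exact test). Sequences that share GATA, the letters of its core, were also higher in members. GCGATA occurred in 17.3% of members' and 8.97% of unbound promoters (adjusted p = 9.94e-13 by Fisher's exact test), TGATAA in 21.0% and 12.9% (1.93e-09) and AGATAA in 16.1% and 9.97% (3.48e-07). CGATAG occurred in 18.4% and 10.1% (adjusted p = 8.04e-12, Fisher's exact test). Both CGATAG and GCGATA also share the letters CGATA with the DRE, so they cannot be assigned to the GATA site alone.

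Promoter elements of broadly active genes and GAGA factor sites were more frequent at members, and the TATA box was less frequent. The DRE core occurred in 18.6% of members' and 12.7% of unbound promoters, with a replicate difference of 5.10 ± 2.03 points (SD, n = 4; adjusted p = 1.50e-05 by Fisher's exact test). The whole DRE occurred in 7.94% and 4.28%, and the Motif 1 core in 5.0% and 3.80%, both without a test because they are longer than 6 bp. The GAGA factor site occurred in 14.0% and 8.35%, with a difference of 5.77 ± 0.81 points (adjusted p = 5.91e-07, Fisher's exact test). The E-box, one of the elements seen often in fly core promoters, occurred in 15.9% and 11.1% (5.03 ± 0.84 points, adjusted p = 0.000233 by the same exact test). The TATA box occurred in 21.9% of members' and 31.0% of unbound promoters, a difference of −8.92 ± 1.79 points (adjusted p = 2.66e-08 by Fisher's exact test), and it was lower in 4 of 4 replicates. The Initiator letters TCAGTT occurred in 24.2% of both sets, with a difference of 0.24 ± 0.97 points that changed sign between replicates (adjusted p = 1 by Fisher's exact test), and it was lower in members' promoters when divergent summits were kept (−4.47 points, adjusted p = 0.000618). A DPE form, CGGACGTG, occurred in 1.78% and 0.64%. The calls of the DRE core and the E-box were less firm than the others. The DRE core lost its call among the 3954 strongest peaks (adjusted p = 0.287, Fisher's exact test). It also lost it when IDR peaks had to be overlapped in each of the 3 replicates other than 1, 3 or 4 (2.43 to 3.53 points, adjusted p of 0.0548 to 0.243, Fisher's exact test). The E-box lost its call among the 3954 strongest peaks (adjusted p = 0.138, Fisher's exact test) and without replicate 4 (2.70 points, adjusted p = 0.144).

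The homeodomain site, the sequence closest to what exex is known to bind, did not pass the test between members' and unbound promoters. TAATTA occurred in 10.6% of members' promoters (8.94 to 12.6%) and in 8.86% of unbound promoters (8.22 to 9.54%), with a difference of 1.57 ± 1.03 points (SD, n = 4) and an adjusted p of 0.190 by Fisher's exact test. The difference had 1 sign in 4 of 4 replicates. It passed the threshold of Fisher's exact test when only summits within 100 bp of a TSS were members (4.41 points, adjusted p = 0.00767) and when divergent summits were kept (4.17 points, adjusted p = 5.64e-06). With the GC content of the window as a covariate, in a likelihood ratio test in place of the exact test, it passed as well (adjusted p = 0.0105). The median GC content at the TSS was 44.3% in members' and 41.8% in unbound promoters. The pyrimidine-rich letters CTTTTT, the core of the TCT element (24.6% and 26.9%, adjusted p = 0.279) and the Myc-type E-box CACGTG (2.68% and 2.60%, adjusted p = 0.928) also did not pass Fisher's exact test.

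Sequences that were rarer at members included several with the letters AGGA. Among them CAGGAC had the lowest p, and it occurred in 1.16% of members' and 5.90% of unbound promoters (adjusted p = 1.01e-11 by Fisher's exact test), with a replicate difference of −4.51 ± 0.30 points (SD, n = 4). AAAGGA (6.07% and 12.6%), ATCCTG (1.78% and 6.14%), AAGGAC (1.78% and 6.04%) and GCAGGA (2.94% and 7.88%) also fell below the level of unbound promoters, each with an adjusted p under 0.05 by Fisher's exact test. These sequences were picked from the scan by their p.

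**Figure D2:**
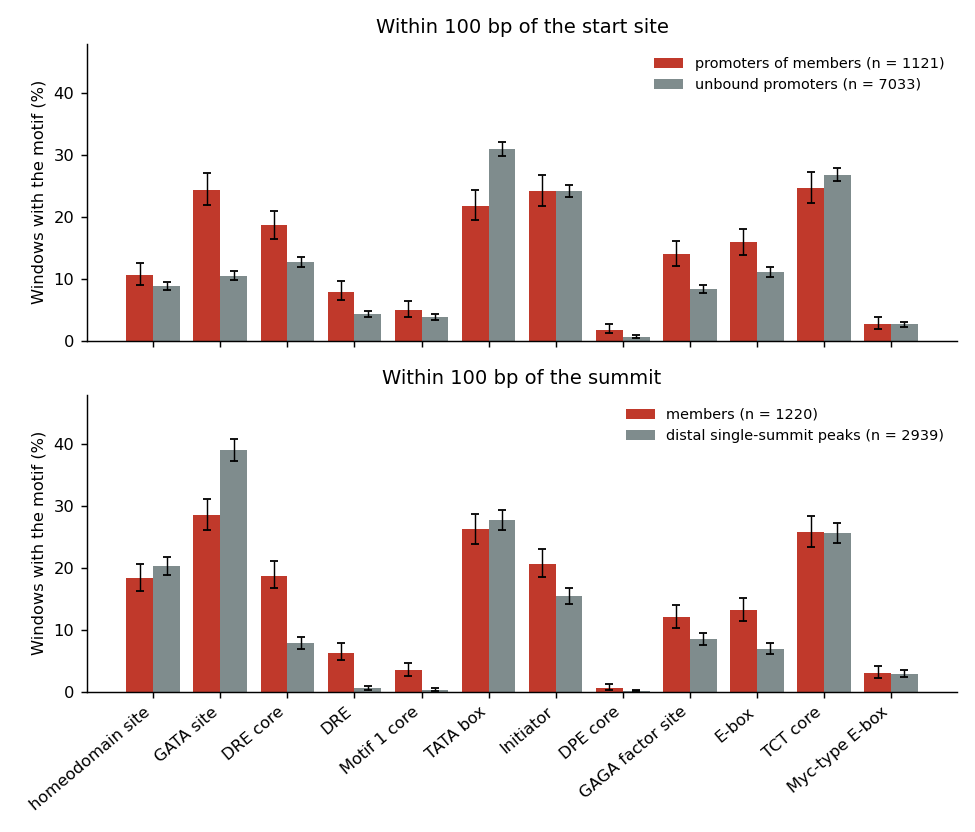
Percentage of windows with each of 12 motifs, with 95% Wilson intervals, at the TSS of members and of unbound promoters (upper panel) and at the summits of members and of distal single-summit peaks (lower panel). The GATA site is at 24.4% in members' promoters and 10.5% in unbound ones, and at 28.6% of member summits and 39.1% of distal summits; the DRE core is higher in members in both panels.

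Member summits were then compared with distal summits of the same list, to describe how their sequences differ. Both sets are bound, and they were chosen by their distance from a TSS. Elements of core promoters can therefore differ between them by position alone, so the comparison cannot tie a difference to binding. The windows covered 100 bp on each side of the summit, for 1220 members and 2939 distal single-summit peaks more than 1000 bp from any TSS. At an adjusted p under 0.05, 236 sequences of 6 bp were higher in members (11.3% of those tested) and 148 were lower (7.12%). All 384 had the same sign in 4 of 4 replicates, which is again not independent of the calls.

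The DRE core had the lowest p in this comparison. It occurred at 18.8% of member summits (16.7 to 21.1%) and 7.79% of distal summits (6.88 to 8.82%). In the 4 replicates member summits held it in 18.6%, 14.7%, 17.5% and 15.4% of cases, and distal summits in 7.69%, 7.71%, 6.89% and 7.96%. The difference averaged 8.99 ± 2.08 points (SD, n = 4; adjusted p = 1.12e-19 by Fisher's exact test). Over the IDR list it was 11.0 points, and it was 6.38 points in windows of 50 bp and 6.39 points with members up to 500 bp from a TSS, both with a call. The whole DRE occurred at 77 of 1220 member summits (6.31%) and 15 of 2939 distal summits (0.51%), and the Motif 1 core at 42 (3.44%) and 9 (0.31%). The E-box was at 13.1% and 6.87% (adjusted p = 4.81e-08, Fisher's exact test). All 9032 protein-coding promoters outside head-to-head pairs, bound or not, held the DRE core in 14.0% of cases within 100 bp of the TSS. They held the whole DRE in 4.92%, the Motif 1 core in 4.23% and the E-box in 11.7%. GC-rich sequences such as CGCAGC (14.0% and 6.98%) and GAGCGC (10.2% and 4.59%) were also higher in members. The median GC content was 40.8% at member summits and 38.8% at distal summits.

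The GATA site went the other way. CTTATC was at 28.6% of member summits (26.1 to 31.2%) and 39.1% of distal summits (37.4 to 40.9%), with a difference of −10.1 ± 1.67 points over the replicates (SD, n = 4; adjusted p = 1.73e-08 by Fisher's exact test). Member summits thus lay between unbound promoters and distal summits in their share of GATA sites, though the windows are centred on a TSS in one case and on a summit in the other. Counted as GATAA in any context, the core was at 57.8% of member summits and 69.3% of distal summits, and within 100 bp of the TSS of 49.96% of members' and 37.1% of unbound promoters. The homeodomain site was at 18.4% of member summits (16.3 to 20.6%) and 20.3% of distal summits (18.9 to 21.8%), with a difference of −2.13 ± 0.42 points that did not pass (adjusted p = 0.363 by Fisher's exact test). The TATA box was at 26.2% and 27.8% (adjusted p = 0.55, exact test), and it passed as lower in members when only summits within 100 bp of a TSS were members (−5.28 points, adjusted p = 0.0287). The Initiator was at 20.7% and 15.4% (adjusted p = 0.00143), and the GAGA factor site at 12.0% and 8.47% (adjusted p = 0.00607), both by Fisher's exact test. Neither of these 2 held under every alternative. The GAGA factor site lost its call in 5 of them, with adjusted p of 0.0592 (GC content as a covariate, likelihood ratio test) to 0.952 (1 TSS per gene, Fisher's exact test). The Initiator lost its call in 5 as well, with adjusted p of 0.0655 (the 3954 strongest peaks) to 0.321 (windows of 50 bp), all by Fisher's exact test.

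The motifs were then counted by their distance from the TSS. In bins of 20 bp, the GATA site was most frequent from 60 to 40 bp upstream of the TSS in both sets of promoters. It was there in 6.69% of members' and 2.22% of unbound promoters. It was at 2.77% and 1.25% in the next bin, from 40 to 20 bp upstream, and at 1.07% and 0.57% in the 20 bp after the TSS. In members' promoters the DRE core was most frequent from 40 to 20 bp upstream, at 5.26%, against 2.80% of unbound promoters there. Unbound promoters held it most often from 60 to 40 bp upstream, at 3.00%, where members' promoters were at 4.82%. The GAGA factor site was at 3.66% and 1.88% from 100 to 80 bp upstream. The TATA box had its highest bin from 40 to 20 bp upstream in both sets, where 6.33% of members' and 11.0% of unbound promoters held it. Members' promoters were nearly as high from 200 to 180 bp upstream, at 6.07%, against 3.97% of unbound promoters. The Initiator was highest in the 20 bp after the TSS, at 10.2% and 8.56%.

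**Figure D3:**
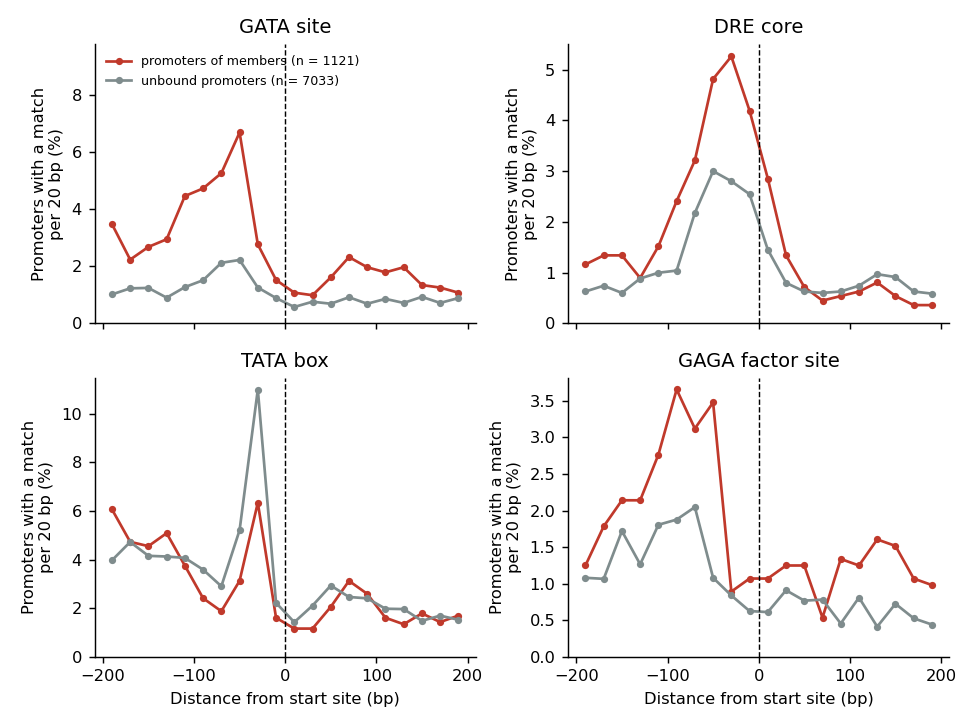
Percentage of promoters with a match in each 20 bp bin, by distance from the TSS in bp with upstream negative, for the GATA site, the DRE core, the TATA box and the GAGA factor site in members' and unbound promoters. The GATA site reaches 6.69% in members' promoters from 60 to 40 bp upstream against 2.22% in unbound ones, and the TATA box reaches 6.33% against 11.0% from 40 to 20 bp upstream.

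The share of members with the nearest match close to the summit was also counted for each motif. Of the 229 members with a DRE core within 100 bp of the summit, 37.1% had the nearest one within 25 bp and 60.3% within 50 bp. The GATA site was within 25 bp in 34.1% of the 349 members that held it, and the homeodomain site in 37.5% of 224. The GAGA factor site was farther off, within 25 bp in 21.1% and within 50 bp in 44.2% of 147 members. The Initiator was within 25 bp in 27.4% and within 50 bp in 50.4% of 252 members. These shares are descriptions, with no test. They were not compared with matches placed at random in the window, so they do not show that any motif is tied to the summit.

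Within the members, the GATA site was more frequent at strong peaks than at weak ones, and the DRE core less frequent. Members were ordered by signal and cut into 4 equal groups, and the groups of highest and lowest signal were compared in each replicate's own members. The GATA site was at 45.4%, 37.6%, 36.5% and 38.6% of the highest group in replicates 1 to 4, and at 20.9%, 18.6%, 20.9% and 17.6% of the lowest group. The ranges of these groups did not overlap, and the difference averaged 20.03 ± 3.73 points (SD, n = 4; exact two-sided sign-flip test, p = 0.13, the smallest that 4 replicates allow). The homeodomain site was at 20.3%, 21.9%, 21.6% and 20.5% of the highest group and at 15.3%, 20.1%, 13.5% and 11.6% of the lowest group. Its difference was 5.94 ± 3.22 points, positive in all 4 replicates (exact sign-flip test, p = 0.13), and smallest in replicate 2 at 1.79 points. The DRE core was at 12.8%, 11.1%, 13.1% and 13.1% of the highest group and at 20.9%, 17.6%, 21.6% and 15.1% of the lowest group, a difference of −6.26 ± 2.98 points, negative in all 4 replicates (exact sign-flip test, p = 0.13). With members cut into 2 groups by signal in place of 4, the GATA difference was 11.6 ± 3.36 points and the DRE core difference −2.92 ± 3.0 points (SD, n = 4 each; exact sign-flip test, p = 0.13 and 0.25), so the sign of the DRE core was not the same in all replicates.

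**Figure D4:**
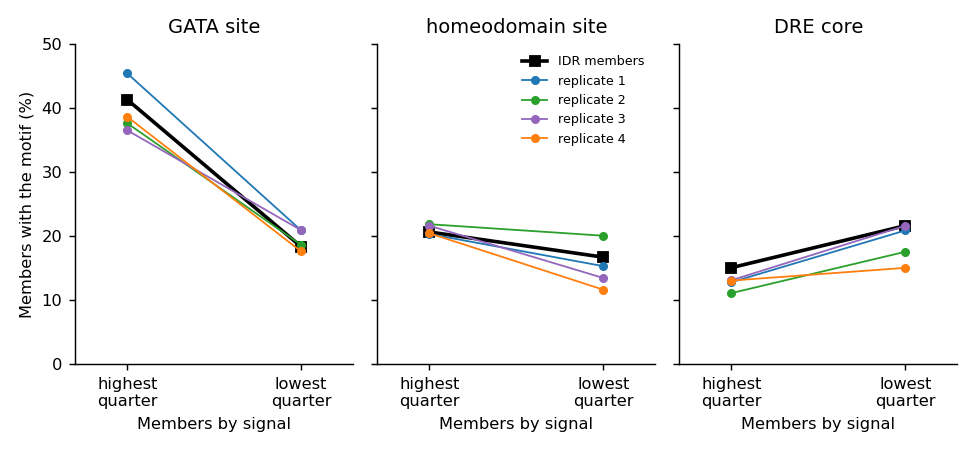
Percentage of members with the GATA site, the homeodomain site and the DRE core within 100 bp of the summit, in the highest and the lowest of 4 groups by signal, for IDR members and the own members of each replicate. The GATA lines are higher in the highest group than in the lowest in every list, at 41.3% and 18.4% of IDR members, while the DRE core lines are lower there, at 15.1% and 21.6%.

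The IDR members showed the same order across all 4 groups. From highest to lowest signal, the GATA site was at 41.3%, 27.5%, 27.2% and 18.4% of the groups, each of 305 members. The DRE core was at 15.1%, 17.7%, 20.7% and 21.6%, the whole DRE at 4.26%, 5.25%, 6.23% and 9.51%, and the Motif 1 core at 0.66%, 2.95%, 3.28% and 6.89%. The TATA box differed less, at 28.2%, 29.2%, 24.6% and 23.0%. These groups were cut by the same list that defined the members, and they are given without a test.

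Split by both motifs, 276 members (22.6%) held a GATA site and no DRE core, 156 (12.8%) a DRE core and no GATA site, 73 (5.98%) both and 715 (58.6%) neither. The median rank percentile among members was 39.1 for those with a GATA site only, 57.6 for those with a DRE core only, 49.6 for both and 53.9 for neither, where 0 is the strongest. In the own members of replicates 1 to 4 it was 33.7, 39.6, 38.4 and 42.3 for a GATA site only, and 60.1, 61.2, 54.7 and 55.6 for a DRE core only, which did not overlap. For members with both it was 44.6, 38.5, 52.4 and 32.5, so its order against a GATA site only differed between replicates. Summits were upstream of the TSS in 74.3% of members with a GATA site only and 73.1% with a DRE core only, and in 60.4% of those with neither. The median signed position was 40 bp upstream for members with neither motif and 80 bp upstream for those with a GATA site only. The motifs were then counted beside each other. The homeodomain site was at 15.5% of members with a GATA site (12.1 to 19.6%) and 19.5% of those without (17.0 to 22.3%), and the DRE core at 20.9% (17.0 to 25.5%) and 17.9% (15.5 to 20.6%), with intervals that overlap in both cases.

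Genes with a member were longer and had more start sites than unbound genes. The 1121 genes are 8.04% of the 13945 protein-coding genes, and 1031 of them had 1 member, 81 had 2 and 9 had 3. Their median length was 3928 bp, against 1866 bp for genes with an unbound promoter, and in the replicates the medians were 3830 to 4183 bp and 1852 to 1878 bp. At least 2 TSSs were annotated for 53.2% of genes with a member and for 19.1% of unbound genes. Single-exon genes made up 7.23% and 18.9%. The median distance to the upstream neighbour was 462 bp for genes with a member and 727 bp for unbound genes. For all protein-coding genes it was 375 bp, and for those outside head-to-head pairs 678 bp. Unbound genes were all taken from outside such pairs and genes with a member were not, so their distances differ by that choice as well. A gene with more start sites has more places where a member can stand, and a member stood at 35.7% of genes with 4 or more TSSs, 13.5% of those with 2 or 3 and 5.12% of those with 1. Counted per start site, 7.11% of the 9361 TSSs of genes with several and 5.12% of the 10246 TSSs of genes with 1 had a member. Where a gene had several TSSs, 285 of 685 members (41.6%) stood at the 5′-most one, with 37.4% to 42.0% in the replicates.

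The 9 genes with 3 members were Eip75B, tkv, ush, Gpo1, Nhe3, CG2765, bru2, milt and lola, and they were picked after this count was seen. Several encode regulators of development. Eip75B, an ecdysone-induced nuclear receptor with 7 annotated TSSs, had summits 180 and 71 bp upstream of 2 start sites and 35 bp downstream of another, with IDR ranks of 4422, 7222 and 1235. ush, a partner of GATA factors in blood and cardiac cells, had summits 194 bp downstream of one TSS and, at another, 172 bp upstream and 37 bp downstream, with ranks of 1724, 1855 and 7461. tkv, a receptor for the Dpp signal, had 2 of its 3 summits on either side of 1 TSS, 168 bp downstream and 38 bp upstream, and the third exactly at another TSS. bru2 had 1 of the strongest members, at rank 77, and 2 others at ranks 2849 and 6675. The members of 1 gene thus often differed widely in rank, and those around 1 TSS are not independent of each other.

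Housekeeping gene lists differed widely in how often they had a member, against 8.04% of all protein-coding genes. Of the 86 cytosolic ribosomal protein genes, 19 had a member (22.1%, 14.6 to 31.9%), with 20.9%, 11.6%, 18.6% and 23.3% in replicates 1 to 4. The strongest were RpL30, with a signal of 897, RpL23A, with 693, and RpL11, with 636. Of the 19 members, 14 were upstream of the TSS, 6 held a DRE core, 2 a GATA site and 2 a homeodomain site, and 15, 10, 16 and 16 were overlapped in replicates 1 to 4. The count was 7 to 12 genes when IDR peaks had to be overlapped in each of the 3 other replicates. Of the 86, 53 stand in head-to-head pairs, whose shared summits the rule leaves out, and 52 of the 86 had an IDR summit of any kind within 200 bp. Several other housekeeping lists had few members. Mitochondrial ribosomal proteins had 1 of 73 (mRpL19), proteasome subunits 1 of 48 (Rpn11), aminoacyl-tRNA synthetases 1 of 33 (AlaRS), general transcription factors 1 of 24 (Taf4) and Mediator subunits none of 25 (upper limit of the Wilson interval, 13.3%). The intervals of all but the mitochondrial list held 8.04%, with upper limits of 10.9% for the proteasome, 15.3% for the synthetases and 20.2% for the general transcription factors. Head-to-head pairs, which the rule leaves out, held 35.2% of all protein-coding genes, and 11.2% of the 9032 genes outside them had a member. Such pairs held 45.8%, 69.7%, 62.5% and 72% of the proteasome, synthetase, general transcription factor and Mediator genes. An IDR summit of any kind within 200 bp stood at 12.5%, 27.3%, 33.3% and 28% of these genes in that order, against 17.3% of all protein-coding genes. Of mitochondrial ribosomal protein genes 79.5% stand in head-to-head pairs, and 23 of the 73 had an IDR summit of any kind within 200 bp. Oxidative phosphorylation subunits had 6 of 84 (7.14%, 3.31 to 14.7%), led by UQCR-Q, SdhD and ND-15. Vacuolar ATPase subunits had 3 of 33 (9.09%, 3.14 to 23.6%), led by Vha16-1 with a signal of 736. Both shares were near the 8.04% of all protein-coding genes. Head-to-head pairs held 47.6% and 42.4% of these genes. An IDR summit of any kind stood within 200 bp at 19.0% and 24.2% of them.

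Detoxification and digestive genes were among the lists with the highest shares of genes with a member. Glutathione transferases, which conjugate toxic compounds, had 9 of 35 (25.7%, 14.2 to 42.1%), led by GstE13 with a signal of 1261, GstT1 with 617 and GstD5 with 561. Their share was 25.7%, 28.6%, 20% and 17.1% in replicates 1 to 4, above the share of all genes in each. Trypsins and Jonah proteases, which digest protein in the gut, had 5 of 27 (18.5%, 8.18 to 36.7%), led by lambdaTry with a signal of 2801, zetaTry with 437 and Jon99Ci with 417. The interval of this list holds 11.2%, the share of genes outside head-to-head pairs that had a member. An IDR summit stood within 1000 bp of a TSS at 81.5% of these protease genes and at 68.6% of the glutathione transferases, against 28.2% of all protein-coding genes. Genes of both lists lie in clusters, so 1 IDR summit can count for more than 1 gene in these 1000 bp shares. A member counts for 1 gene only. Of 9 genes for DREF, M1BP and insulator proteins, 3 had a member: CTCF, with a signal of 730, Trl, which encodes GAGA factor, with 319, and BEAF-32, with 271. The symbols Z4, ibf1 and ibf2 of that list were not matched.

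**Figure D5:**
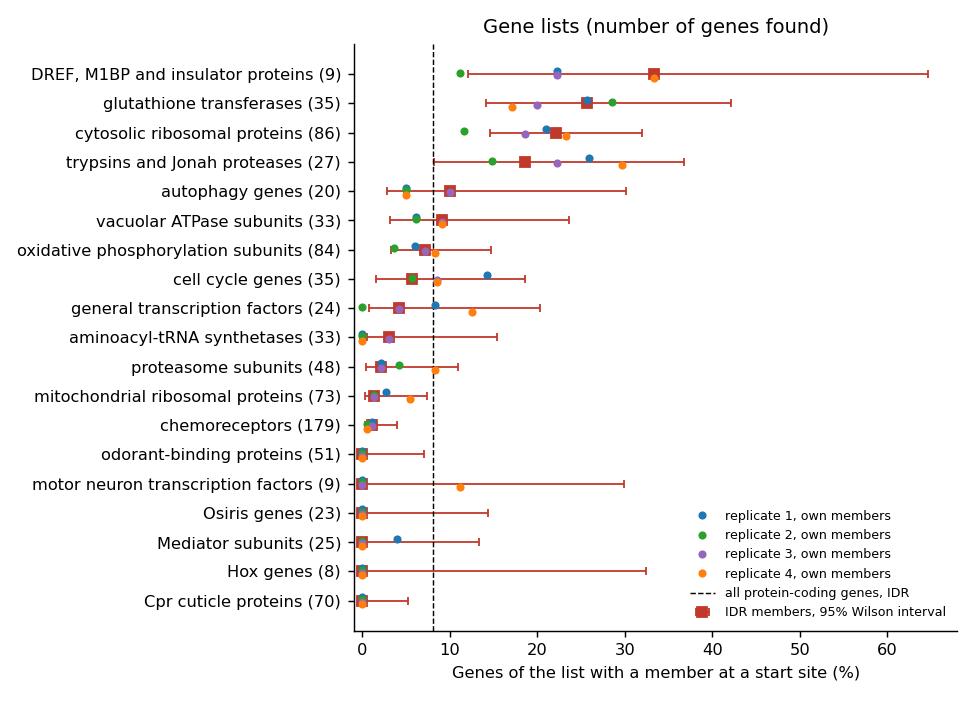
Percentage of genes with a member at a start site for 19 gene lists, with the 95% Wilson interval for the IDR list and points for the own members of replicates 1 to 4; the dashed line is 8.04%, the share of all protein-coding genes. Cytosolic ribosomal proteins are at 22.1% and mitochondrial ribosomal proteins at 1.37%, and no IDR member was found in 6 lists.

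Lists tied to neurons and late differentiation had few or no members. None of the 9 motor neuron transcription factors and none of the 8 Hox genes had one, though lists this short allow up to 29.9% and 32.4% by their Wilson intervals. Odorant-binding proteins had 0 of 51 (upper limit 7.0%), Cpr cuticle proteins 0 of 70 (5.20%) and Osiris genes 0 of 23 (14.3%). Of 179 chemoreceptor genes 2 had a member (1.12%), Ir25a, a broadly used co-receptor, with a signal of 863, and Ir21a, with 235. Cell cycle and autophagy genes are lists of another kind, and their intervals held 8.04%, the share of all protein-coding genes. Of the cell cycle genes 2 of 35 had a member (5.71%, 1.58 to 18.6%), CycG and Orc6. Of the autophagy genes 2 of 20 had one (10%, 2.79 to 30.1%), Atg14 and Atg8a. Head-to-head pairs held 48.6% and 80% of these genes. In that order, 14.3% and 50% had an IDR summit of any kind within 200 bp. An IDR summit of any kind stood within 1000 bp of a TSS at 33.3% of motor neuron transcription factors, against 28.2% of all protein-coding genes. It did so at 0% of Hox, odorant-binding protein and Osiris genes, 5.71% of Cpr genes and 4.47% of chemoreceptor genes. Within 200 bp, the share was 11.1% of the motor neuron transcription factors and 17.3% of all protein-coding genes. Members were spread over the chromosome arms much as the IDR list was: arm 2L held 19.0% of members and 19.5% of IDR peaks, arm 3R 24.1% and 23.5%, and chromosome X 13.4% and 15.3%.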

How the data were processed

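Anti-GFP chromatin immunoprecipitation was measured in 4 replicates of whole 6 to 24 h embryos, which formed 1 group from the source name in the labels. The authors deposited narrowPeak lists on dm6 for each replicate, the pooled replicates and the IDR filter, per the labels and the file lists. Each peak has the authors' signal, treated as a score, and a deposited q-value on a −log10 scale, which was used to count peaks with q under 0.01. Neither the peak caller, the aligner nor a threshold for IDR is named in the sources used here. Read depth is unknown, signal tracks were not used here, and the possible control experiment named in the labels was not analysed here.

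From each replicate the 7909 peaks of highest signal were used, as many as the IDR list holds, and the IDR peaks were the 7909 highest of the pooled list. The annotation was Ensembl release 115 on BDGP 6.54; it held 19607 TSSs of 13945 protein-coding genes. Bases were read from the Release 6 genome. Replicate values were compared by exact sign-flip tests, and 6 bp sequences by Fisher's exact test. Intervals are 95% Wilson intervals, and they cover counting error only. Labels do not say how far the embryo collections were separate, so p-values over replicates measure only the spread between these libraries. No pair of replicate lists shared a peak of identical position and signal. The scan was tested on simulated data.

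The members, motifs and gene lists were chosen with earlier results of these data known. The genes named were those of the 15 strongest and 5 weakest members and of up to 3 strongest members in each gene list; the 9 genes with 3 members and Oatp33Ea, shown for its sequence, are named besides. The alternatives were other distances from the TSS, divergent summits kept, 1 TSS per gene, the stronger 3954 peaks of the list, each replicate left out, other overlaps, 50 bp windows, GC content as a covariate, other unbound promoters and 2 groups by signal. The GC covariate was applied to all 6 bp sequences. Tests were run with scipy 1.17.1 and numpy 2.4.6, tables were read with pandas 2.3.3, and figures were drawn with matplotlib 3.10.9, all under Python 3.11.15.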

Additional observations from a re-analysis of the deposited data

Results flagged for a closer look

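In 55 measures over the 4 replicates, 7 had 1 replicate far from the other 3 by Dixon's rule, which chance gives in about 1 in 20 groups. The TATA box difference of member minus distal summits was −2.08 percentage points in replicate 4, against −0.53, −0.51 and −0.42 points in replicates 1 to 3. The E-box difference between members' and unbound promoters was 3.79 points in replicate 2, against 5.31 to 5.53 points in the others, and that of the Myc-type E-box was −0.29 points in replicate 2, against 0.34 to 0.46 points. The remaining 4 flags come from gene lists in which 1 gene decides the value. The share with a member was 3.03% of aminoacyl-tRNA synthetases in replicate 3 and 0% in the others, and 4.00% of Mediator subunits in replicate 1 and 0% in the others. It was 11.1% of motor neuron transcription factors in replicate 4 and 0% in the others, and 10% of autophagy genes in replicate 3 and 5% in the others.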

How the results depend on the processing

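The GATA site kept its sign and its call against unbound promoters and against distal peaks under every alternative that was run for it, as did the DRE core against distal peaks; left-out replicates gave 15.1 to 16.8, −11.9 to −10.5 and 7.64 to 8.82 points. Their size moved more with the window. In 50 bp windows the 3 differences were 4.72, −7.08 and 6.38 points, and the DRE core was at 6.39 points within 500 bp. The share of upstream summits and the 3 comparisons by signal also kept the sign of their mean throughout, although 4 replicates cannot reach p under 0.05. Their size did not hold. The excess of upstream summits was 5.47 points in the IDR list within 100 bp (SD over replicates 4.47, n = 4), and with 2 groups by signal the GATA and DRE core differences were 11.6 and −2.92 points. In 50 bp windows those 2 were 12.9 and −3.99 points. With divergent summits kept, the share of members in the replicates was 27.3%, and it was 26.8% within 500 bp of a TSS, 9.03% within 100 bp and 11.9% with 1 TSS per gene. Genes with a member numbered 1888 with divergent summits, 648 within 100 bp, 524 in the stronger 3954 peaks (the short list) and 2406 with any IDR summit within 200 bp, and 679 to 762 when IDR peaks had to be overlapped in the other 3 replicates. Ribosomal protein genes with a member numbered 51 with divergent summits, 8 in the short list, 52 with any summit, and 7 to 12 without a replicate.

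The number of called 6 bp sequences moved with most alternatives, and not always with the number of members. Against unbound promoters, 114 were higher and 98 lower within 100 bp, 87 and 72 with 1 TSS per gene, 88 and 70 in the short list, and 111 and 117 in 50 bp windows. With GC content as a covariate 124 were higher, and without a replicate 139 to 145 were higher. Against distal peaks, 314 were higher and 190 lower within 100 bp, with 667 members. The same comparison gave 93 higher and 95 lower sequences within 500 bp, with 1967 members, 106 and 82 with 1 TSS per gene, 19 and 15 in the short list, 91 and 73 in 50 bp windows, and 71 to 109 and 43 to 72 without a replicate. With GC content 110 were higher, and with divergent summits 240 were lower. The cause was not tested.

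Several differences that missed the threshold changed sign or gained a call. The homeodomain site against unbound promoters kept its sign in every alternative run, at 0.68 to 4.41 points where the value is a difference, and gained a call within 100 bp, with divergent summits and with GC content. The recovery difference was 0.043 points within 500 bp, 0.17 points in the short list and −2.59 to 0.41 points without a replicate, and the rank difference was −1.79 points within 500 bp. The Initiator difference from unbound promoters was 1.03 points within 500 bp, 2.68 in the short list, 0.39 with pooled summits left out of the unbound set and 1.62 to 2.43 without a replicate, and with divergent summits it was −4.47 points with a call (adjusted p = 0.000618, Fisher's exact test). The TATA box difference from distal peaks was 2.86 points with divergent summits and 1.43 with 1 TSS per gene, had a log odds of 0.11 with GC content, and was −0.26 to 0.84 points without a replicate. Within 100 bp it was −5.28 points with a call (adjusted p = 0.0287, Fisher's exact test). The homeodomain site difference from distal peaks was 1.04 points with 1 TSS per gene, had a log odds of 0.035 with GC content, and was −1.62 to 0.26 points without a replicate. The DRE core against unbound promoters lost its call in the short list (adjusted p = 0.287, Fisher's exact test) and without replicate 1, 3 or 4, with 2.43 to 3.88 points over the 4 left-out replicates. The E-box against unbound promoters lost its call in the short list (adjusted p = 0.138, Fisher's exact test) and without replicate 4, at 2.70 points. No paired analysis was possible because the study has 1 group.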
